A study of Mus musculus with 9 samples.

Results

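Livers of mice that received metformin on top of a high fat diet were compared with livers of chow-fed mice, to ask which miRNAs differed from chow under the drug. The comparison used the 3 arrays of the metformin group and the 3 arrays of the control group, 6 of 9 arrays in the study, and every mouse miRNA on them. All mice were male C57BL/6J, an inbred wild-type strain, and were 20 weeks old when liver was taken. Control mice ate chow for 17 weeks from the age of 3 weeks. Mice of the metformin group ate for those 17 weeks a diet that drew 45% of its energy from fat, and from the age of 15 weeks, after 12 weeks of the diet, were given metformin by stomach tube at 3 mg per kg per day for 5 weeks. The remaining group of 3 arrays, used here for reference, ate the same fat diet and was given saline by stomach tube for the same 5 weeks. Each array measured RNA of a pool of livers from 4 mice of 1 group, so errors are the spread between pools and not between mice. Diet and drug both differ between metformin and control mice and cannot be told apart in this contrast. The labels do not say whether control mice received a vehicle.

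A miRNA is a short RNA that guides a silencing protein to messenger RNAs, mainly through base pairing of its seed, and lowers their translation and stability. In hepatocytes, miR-122 makes up much of the pool. Obesity and fatty liver are associated with raised hepatic miR-34a, a transcript induced by p53 that represses the deacetylase Sirt1. Metformin is a first-line drug of type 2 diabetes that lowers glucose output by the liver.

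Of 1881 mouse miRNAs on the array, 143 could be tested, which means that their probe was well above background on all 3 arrays of at least 1 group. Of these, 122 were detected on all 6 arrays of metformin and control, 20 were missed on at least 1 control array and 2 on at least 1 metformin array. After probes with too few spots were dropped, 1711 miRNAs were detected on no array. Arrays had edge strips in which even bright probes were dark, and dropping those strips before any value was taken removed 43.8%, 43.5% and 41.1% of the miRNA spots of control arrays 1, 2 and 3 and 0%, 31.1% and 0% of those of metformin arrays 1, 2 and 3. Control values therefore rest on fewer spots. Levels are given as the log2 of a probe's median intensity over the array's 75th percentile, an intensity of 193 to 225 for control and of 231 to 252 for metformin. A level of 0 is an intensity equal to that percentile, and differences are log2 metformin minus control from limma with a standard error (SE). Levels of the tested miRNAs correlated across miRNAs, which are not independent replicates, at 0.987 to 0.995 between control arrays, 0.996 to 0.998 between metformin arrays and 0.980 to 0.995 between arrays of the 2 groups.

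A pair of sequences carried the comparison. These are the mature miRNAs that passed the test, followed by the miRNAs of the reference table that share the seed of miR-34a-5p. They are shown because the seed sets which messenger RNAs a miRNA pairs with. Sequences are those of RefSeq on build GRCm38.p6, written 5′ to 3′, with the seed (bases 2 to 8) in capitals.
miR-34a-5p: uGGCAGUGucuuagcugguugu
miR-677-3p: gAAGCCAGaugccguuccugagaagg
miR-34b-5p: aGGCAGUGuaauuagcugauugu
miR-449a-5p: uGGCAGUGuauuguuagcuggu
miR-449c-5p: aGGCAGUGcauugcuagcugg
The mature miR-34a-5p lies at chr4:150068473-150068494 on the plus strand, within its own miRNA gene Mir34a and within no other gene of the table. The mature miR-677-3p lies at chr10:128085335-128085360 on the plus strand, inside the annotated span of Atp5b (chr10:128083307-128090388), the gene for the beta subunit of mitochondrial ATP synthase. Whether that position is exonic or intronic is not given by the table used here. miR-34b-5p, miR-449a-5p and miR-449c-5p were each detected on 0 of 9 arrays, and so was miR-34c-5p, a further member of the miR-34 family. The opposite arms miR-34a-3p and miR-677-5p were also detected on 0 of 9 arrays.

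The level of miR-34a-5p rose 1.75-fold in livers under metformin and the fat diet relative to chow. Its levels on the control arrays were -1.84, -1.91 and -2.02, at intensities of 54.0, 58.8 and 55.6. On the metformin arrays they were -1.08, -1.10 and -1.17, at intensities of 119, 107 and 106. Every metformin array lay above every control array, and the spread within either group was far smaller than the gap between them. The difference was 0.80 (SE 0.14, 95% interval 0.49 to 1.12, adjusted p = 0.0143 by limma with Benjamini-Hochberg adjustment over the 143 miRNAs). The second probe of miR-34a-5p, also detected on all 9 arrays, read 0.79. In bulk tissue of this kind, more cells that hold a miRNA and more of it per cell cannot be told apart.

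With the fat diet and saline, miR-34a-5p stood at -0.27, -0.48 and -0.91, at intensities of 184, 200 and 172. The metformin arrays thus lay between the other groups, above all 3 control arrays and below all 3 saline arrays. The saline group differed from the same 3 control arrays by 1.37 (SE 0.14, adjusted p = 0.000265 by limma). Metformin minus saline was -0.56 (SE 0.14, unadjusted 95% interval -0.88 to -0.25, adjusted p = 0.126 by limma), which did not pass.

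The level of miR-677-3p fell 1.54-fold relative to chow. It stood at -3.44, -3.50 and -3.42 on the control arrays and at -4.04, -4.07 and -4.13 on the metformin arrays. The groups did not overlap, and each had an SD of 0.05 (n = 3 each). The difference was -0.63 (SE 0.09, 95% interval -0.83 to -0.42, adjusted p = 0.00534 by limma). The saline group stood at -3.79, -4.01 and -4.03, a difference from the same control arrays of -0.49 (adjusted p = 0.00796 by limma), and metformin minus saline was -0.14 (95% interval -0.34 to 0.07, adjusted p = 0.613). This is a dim probe. Its intensity was 17.8, 19.5 and 21.1 on the control arrays and 15.3, 13.8 and 13.5 on the metformin arrays, after subtraction of a local background of 19.1 to 20.2 on the control arrays and 15.6 to 19.1 on the metformin arrays. The other probe of miR-677-3p was detected on 0 of 9 arrays, so no second probe bears on the value.

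**Figure D1:**
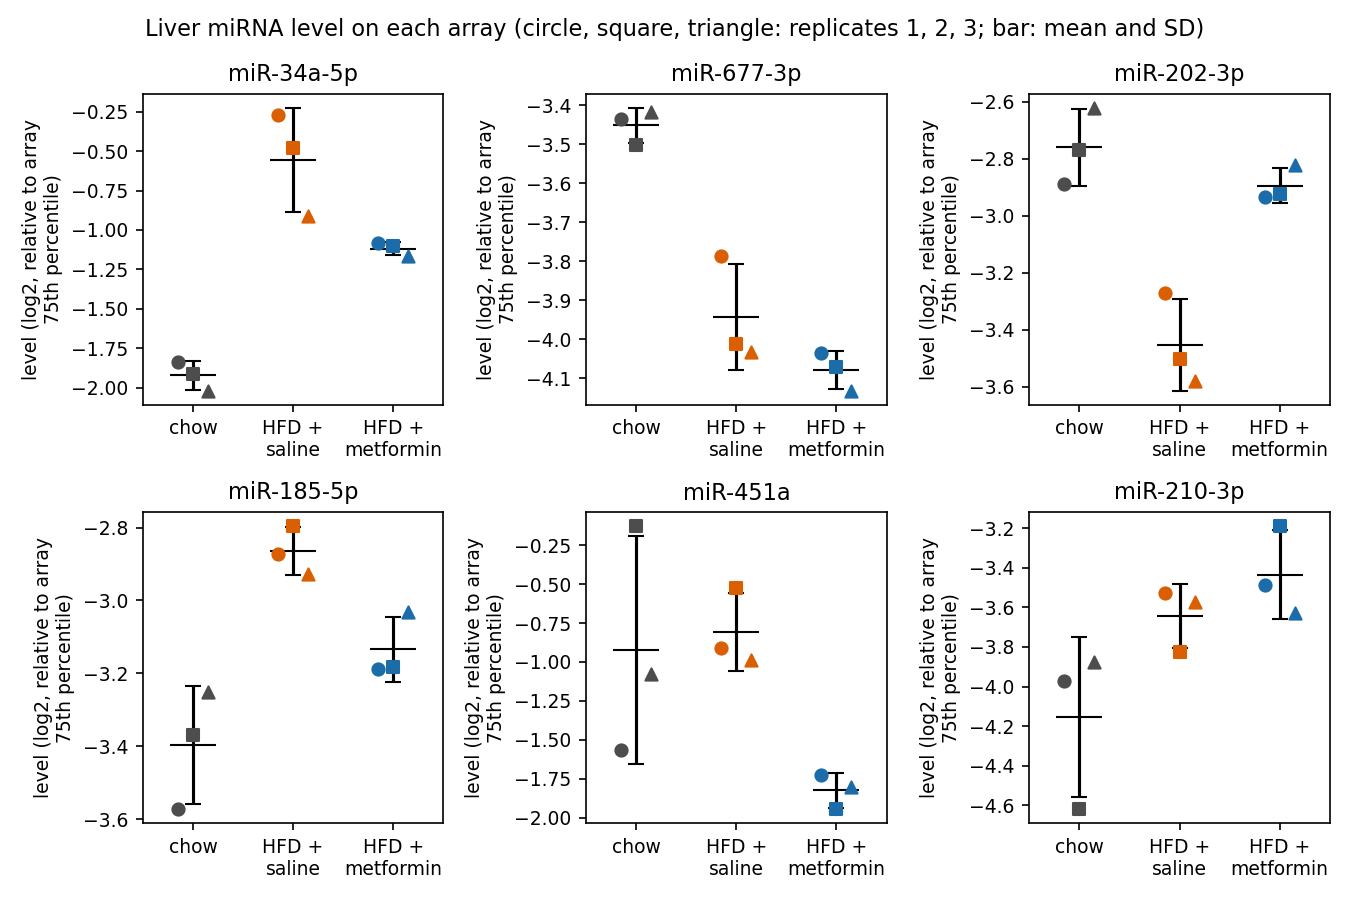
Level (log2 of intensity over the array's 75th percentile, vertical axis) of 6 miRNAs on each of 9 arrays, by group, with HFD for the high fat diet; symbols mark replicates 1, 2 and 3 and bars the mean and SD. For miR-34a-5p the metformin arrays (-1.08 to -1.17) lie between chow (-1.84 to -2.02) and saline (-0.27 to -0.91), and for miR-677-3p all metformin arrays lie at -4.04 or lower.

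Both calls were lost under some settings. Normexp, a background correction among them, adds an intensity of 50 to every spot. That is more than miR-677-3p read on any array, and it shrinks the differences of dim probes. For miR-34a-5p the call ended with the mean of all spots, edge strips included (0.59, adjusted p = 0.249), with normexp background correction (0.41, adjusted p = 0.0905), with quantile normalization (0.86, adjusted p = 0.0509), with the row of the slide as a block (0.74, adjusted p = 0.0595), in the deposited value table (0.57, adjusted p = 0.579, and 0.69, adjusted p = 0.325, once its medians were set to 0), with no detection filter (0.80, adjusted p = 0.360) and without metformin array 1, 2 or 3 (0.79, 0.80 and 0.83, adjusted p = 0.0702, 0.0985 and 0.0768 by limma). For miR-677-3p it ended with normexp (-0.28, adjusted p = 0.176), in the deposited table (-0.70, adjusted p = 0.886, and -0.58, adjusted p = 0.878, with medians at 0), with no filter (-0.63, adjusted p = 0.192) and, with the other arrays rescaled, without control array 1 (-0.48, adjusted p = 0.0570). It also ended with the percentile over all probes (0.18, adjusted p = 0.573 by limma), and with the mean of all spots miR-677-3p could not be tested. The fit with no filter took in the 1711 miRNAs detected on no array. Most miRNAs in it did not vary, which alters the spread that limma shares and the number adjusted for. The 4 arrays that share a slide row, 2 of each group, gave 0.74 for miR-34a-5p and -0.63 for miR-677-3p (adjusted p = 0.132 each by limma). Over all alternatives the adjusted p ranged from 6.94e-05 to 0.579 for miR-34a-5p and from 0.000579 to 0.886 for miR-677-3p. The lowest value of miR-34a-5p came with the percentile over all probes, which moved the median difference to 0.80 and let 98 miRNAs pass.

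These were the only calls: 2 of 143 miRNAs (1.40%) passed by limma, 1 higher (0.699%) and 1 lower (0.699%). An unadjusted p under 0.05 was reached by 30, of which 10 had metformin higher and 20 lower. Most differences were small. The median over all tested miRNAs was -0.0037, 104 of the 143 lay within 0.25 of 0, 2 exceeded 0.5 upward (miR-34a-5p and miR-210-3p) and 5 exceeded it downward. The metformin and control arrays did not overlap for 37 miRNAs (25.9%), 18 with metformin higher (12.6%) and 19 with metformin lower (13.3%). This even split changed with the arrays and scaling used and with the background method. With control array 1 left out and the other arrays rescaled, the median difference was 0.12, and 50 were higher and 4 lower. With normexp the median difference was -0.10, and 4 were higher and 58 lower. Dim probes then mostly reflect the added intensity of 50, so this fit cannot decide the direction of dim miRNAs. Scaling by the 75th percentile over all probes, nearly all of them undetected, set the percentile at an intensity between 0.629 and 1.60 and moved the median difference to 0.80. Under that scaling 98 miRNAs passed as higher and 0 as lower, miR-677-3p turned to 0.18, and relative to the shifted median it stood at -0.62 and miR-34a-5p at 0.81.

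**Figure D2:**
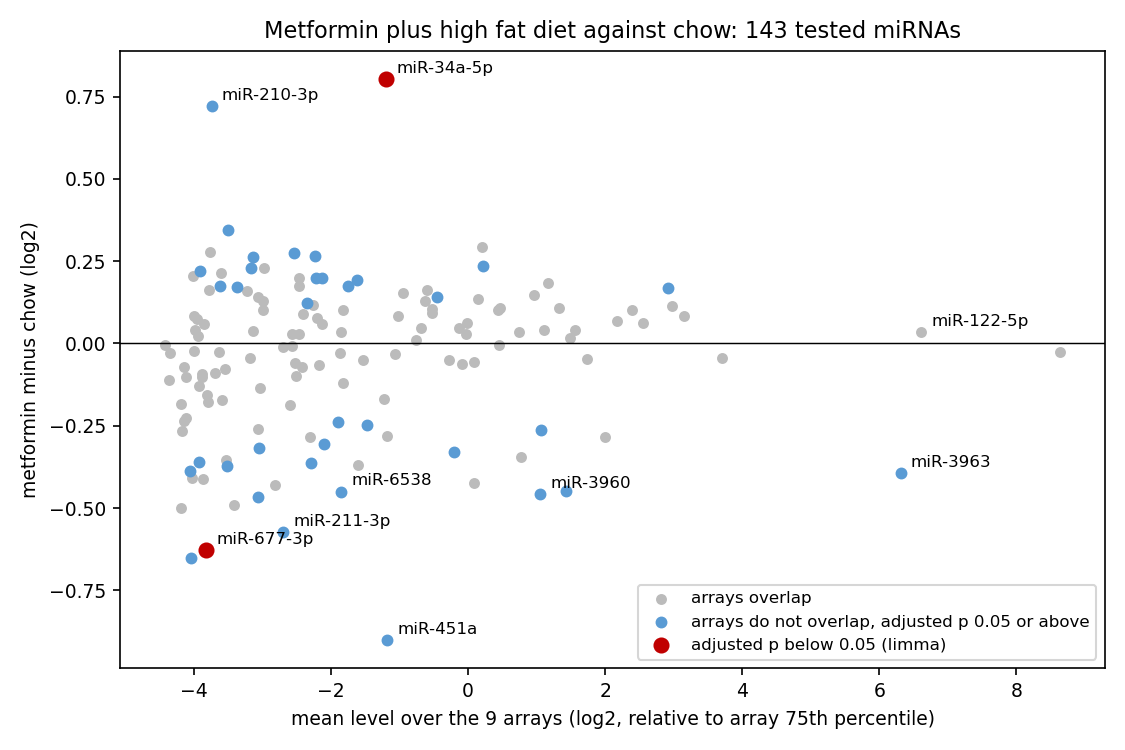
Metformin minus chow (log2, vertical axis) against the mean level over the 9 arrays (log2, horizontal axis) for the 143 tested miRNAs. The miRNAs that passed, miR-34a-5p at 0.80 and miR-677-3p at -0.63, are marked in red, and the largest difference, miR-451a at -0.90, did not pass.

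Of the other miRNAs that differed between saline and control (14.0% of those tested did), miR-202-3p and miR-185-5p showed different distances from chow. miR-202-3p, a miRNA best known from the gonads, stood at -2.89, -2.77 and -2.62 in control and at -2.94, -2.92 and -2.82 under metformin, so that the arrays overlapped. The difference was -0.13 (95% interval -0.37 to 0.10, adjusted p = 0.496 by limma), and the second probe read 0.08, with the opposite sign. Saline minus control was -0.69 (adjusted p = 0.00458) and metformin minus saline was 0.56 (adjusted p = 0.0465). miR-185-5p, which targets regulators of cholesterol synthesis and uptake, stood at -3.57, -3.37 and -3.25 in control and at -3.19, -3.18 and -3.03 under metformin. These arrays did not overlap, but the difference of 0.26 (SE 0.10, adjusted p = 0.189) did not pass, beside 0.53 (adjusted p = 0.00827) for saline minus control. miR-199a-3p was at 0.20 (adjusted p = 0.189) under metformin and at 0.31 (adjusted p = 0.0301) with saline. These comparisons share the control arrays, so their values are set side by side and no agreement between them is drawn.

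**Figure D3:**
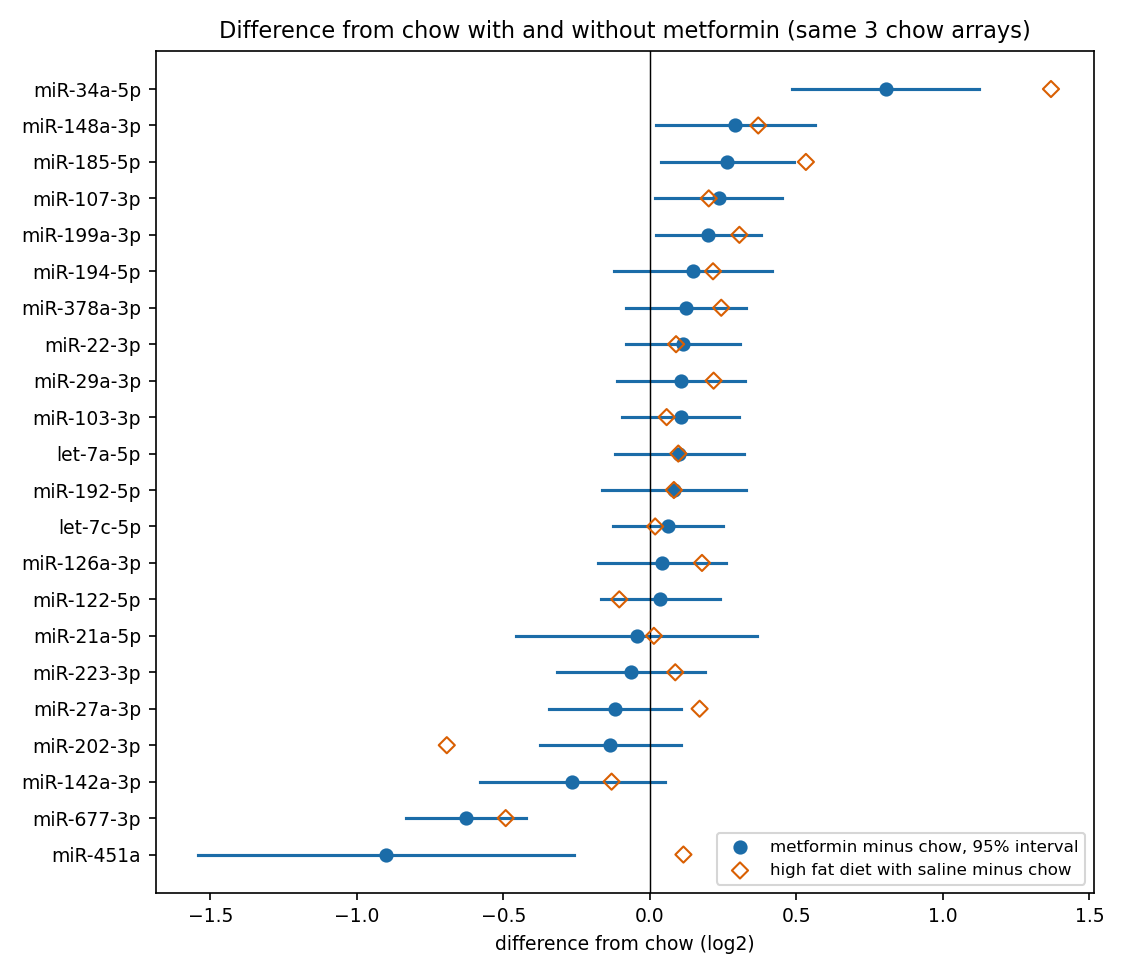
Difference from chow (log2, horizontal axis) of the miRNAs that passed and of those in a chosen list that could be tested: filled circles with 95% intervals for metformin and open diamonds for the saline group, both against the same 3 chow arrays. The interval of miR-34a-5p runs from 0.49 to 1.12, while that of miR-202-3p spans 0 with the saline value at -0.69.

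Several miRNAs stood apart from chow without passing, and were picked out after their values were seen. miR-210-3p, which is induced by hypoxia through HIF-1, stood at -3.97, -4.62 and -3.88 in control and at -3.49, -3.19 and -3.63 under metformin. The groups did not overlap, with a difference of 0.72 (SE 0.19, adjusted p = 0.0936 by limma). It was detected on 2 of 3 control arrays, with control array 2 just above the floor of -4.62, and its second probe on 3 of the 6 arrays. Without that array the difference was 0.49, without control array 3 it was 0.86 and passed (adjusted p = 0.0212), and with normexp it was -0.0038. The fit to the arrays of 1 slide leaves out the same control array 3, so its pass (0.86, adjusted p = 0.0238 by limma) repeats that one. miR-210-3p also passed with array medians set to 0 (0.73, adjusted p = 0.0476). miR-425-5p was at 0.34 (SE 0.09, adjusted p = 0.0933), from -3.73, -3.78 and -3.71 to -3.43, -3.44 and -3.32. It passed with control array 1 left out and the other arrays rescaled (0.49, adjusted p = 0.0361). With normexp it was at -0.06 (adjusted p = 0.639) and in the deposited table at 0.12, and its second probe was detected on 0 of the 6 arrays. The saline group differed from control by 0.37 for miR-425-5p. Downward, miR-211-3p was at -0.57 (adjusted p = 0.0936), miR-3960 at -0.46 (adjusted p = 0.110), miR-6538 at -0.45 (adjusted p = 0.0933) and miR-3102-5p at -0.36 (adjusted p = 0.110), all without overlap. With control array 1 left out and the other arrays rescaled, they were at -0.28, -0.15, -0.26 and -0.22 in the same order. The median of all tested miRNAs was then 0.12, against -0.0037 with all arrays. miR-3102-5p stood at -1.97, -1.98 and -1.98 on the control arrays, so its change came with the rescaling and not with its level on control array 1. miR-211-3p passed with the replicate number as a block (-0.57, adjusted p = 0.0143 by limma) and with array medians set to 0 (-0.56, adjusted p = 0.0476).

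The largest difference was that of miR-451a, a miRNA of red blood cells, at -0.90 (SE 0.29, adjusted p = 0.150 by limma). It stood at -1.57, -0.13 and -1.07 on the control arrays and at -1.72, -1.94 and -1.80 on the metformin arrays. The metformin arrays were close together and lay below the control arrays, which spread widely. The second probe read -0.95. Without control array 2, the highest, the difference was -0.50 (adjusted p = 0.170), and without control array 1 it was -1.08 and passed (adjusted p = 0.0361). The saline group stood at -0.91, -0.53 and -0.99. Metformin minus saline was -1.01 (95% interval -1.66 to -0.37, adjusted p = 0.158). Other erythroid miRNAs gave no test: miR-144-3p and miR-144-5p were detected on 0 of 9 arrays and miR-486a-5p on 1. The summed level of the list, read from miR-451a alone, ran from 0.337 to 0.915 in control and from 0.260 to 0.303 under metformin. The part of blood left in the livers was not tested.

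The mature sequences of some of the miRNAs described above that did not pass against chow are given here. Those printed share no seed with each other or with miR-34a-5p. The seed of miR-202-3p differs from that of the let-7 family in its last base only.
miR-451a: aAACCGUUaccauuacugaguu
miR-210-3p: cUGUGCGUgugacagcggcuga
miR-202-3p: aGAGGUAUagcgcaugggaaga
miR-425-5p: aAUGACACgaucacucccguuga

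Hepatocyte miRNAs lay close to chow. miR-122-5p, the defining miRNA of hepatocytes, was detected on all arrays, at 6.56, 6.65 and 6.71 in control and 6.71, 6.57 and 6.74 under metformin. Its difference of 0.04 had a 95% interval of -0.17 to 0.24 (adjusted p = 0.854 by limma), and its second probe read 0.02. Of 9 hepatocyte miRNAs on the array 6 were tested and 0 passed. Of these 5 were positive, with a median of 0.06 beside -0.0037 over all tested miRNAs. miR-192-5p was at 0.08 (95% interval -0.16 to 0.33) and miR-194-5p at 0.15 (-0.12 to 0.42). miR-148a-3p, which represses the LDL receptor, was at 0.29 (0.02 to 0.56, adjusted p = 0.189), from -0.28, 0.01 and 0.21 to 0.30, 0.20 and 0.32, with overlap. Its relative with the same seed, miR-152-3p, was at 0.20.

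Markers of other cell types showed no call. Beside the members below, 12.6% of all tested miRNAs lay above chow without overlap and 13.3% below it. Of 11 stellate and mesenchymal miRNAs 3 were tested, with a median of 0.07, and miR-199a-3p (0.20) was the member without overlap. miR-214-3p, miR-143-3p and miR-145a-5p were detected on 0 of 9 arrays. The summed linear level of the 3 tested ran from 0.305 to 0.315 of the percentile in control and from 0.334 to 0.349 under metformin. Of 9 leukocyte miRNAs 4 were tested, with a median of -0.10. Among them myeloid miR-223-3p was at -0.06 (95% interval -0.32 to 0.19) and miR-142a-3p, detected on 2 of 3 control arrays, at -0.26. miR-342-3p, named after its values were seen, was at 0.26 without overlap. The summed leukocyte level was 0.489 to 0.577 in control and 0.502 to 0.562 under metformin. Endothelial miR-126a-3p was at 0.04 (-0.18 to 0.26). In the biliary and epithelial list 1 of 8 was tested, miR-31-5p at -0.09, and of 10 muscle, nerve and pancreas miRNAs 0 were tested.

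Regulators of metabolism gave 1 call. Of 25 lipid and cholesterol regulators on the array 14 were tested, 1 rose (miR-34a-5p) and 0 fell, beside 0.699% each of all tested miRNAs. The list's median was 0.08 and 11 of the 14 were positive, while 3 had no overlap upward and 0 downward, beside 12.6% and 13.3% of all tested miRNAs. miR-33-5p, which lies in an intron of Srebf2 and represses the cholesterol exporter Abca1, was detected on 0 of 9 arrays. miR-27a-3p was at -0.12 (-0.34 to 0.11), miR-22-3p at 0.11 and miR-378a-3p at 0.12. Of 19 insulin and glucose regulators on the array 12 were tested and 0 passed. Their median was 0.11, with 10 positive. Above chow without overlap lay miR-107-3p, miR-378a-3p and miR-497a-5p, and below it miR-451a, beside 12.6% and 13.3% of all tested miRNAs. miR-107-3p, which represses caveolin-1 and so insulin signalling, was at 0.23 (0.02 to 0.45, adjusted p = 0.189), from 0.03, 0.07 and 0.11 to 0.31, 0.15 and 0.45. Its relative miR-103-3p, with the same seed, was at 0.10 (-0.09 to 0.30). The lists share members and are described by counts and medians, with no test of a list. Their medians also moved when control array 1 was left out and the other arrays were rescaled. That of all tested miRNAs was then 0.12, that of the lipid list 0.17, of the insulin and glucose list 0.21, of the hepatocyte list 0.13 and of the stellate list 0.22.

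The rise of miR-34a-5p was not accompanied by calls in the other p53-responsive miRNAs. Of 11 on the array 6 were tested, 1 rose and 0 fell, and miR-34b-5p, miR-34b-3p and miR-34c-5p were detected on 0 of 9 arrays. The list's median was 0.11, with 4 of 6 positive: miR-107-3p was at 0.23 without overlap, miR-194-5p at 0.15, miR-192-5p at 0.08, miR-15a-5p at -0.06 and miR-16-5p at -0.05. In the list of tissue injury and fibrosis 11 of 18 were tested and the same miRNA was the 1 that rose. miR-21a-5p, raised in many injured tissues, was at -0.05 with a wide interval of -0.46 to 0.37, and miR-29a-3p, which represses collagens, was at 0.11 (-0.11 to 0.32). Of 16 miRNAs with a response to metformin in other systems 13 were tested, 1 rose (miR-34a-5p), 0 fell, and the median was 0.08. Of all tested miRNAs 0.699% rose and 0.699% fell. The call in these lists and in the lipid list is the same miR-34a-5p, so it counts as 1 result. The lists were chosen with earlier results of these data known.

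In the families and clusters that follow no member passed. Of all tested miRNAs 12.6% lay above chow without overlap and 13.3% below it. All 9 members of the let-7 family, which share the seed GAGGUAG, were tested and 0 passed, with a median of 0.06. let-7b-5p (0.17) lay above chow without overlap and let-7e-5p (-0.24) below it, while let-7a-5p was at 0.10 (-0.12 to 0.32) and let-7c-5p at 0.06 (-0.13 to 0.25). Probes may not separate members of this family fully. All 6 members of the miR-15 family, which restrain the cell cycle, were tested with a median of 0.16, from -0.06 for miR-15a-5p to 0.23 for miR-322-5p. miR-195a-5p (0.17) and miR-497a-5p (0.20) lay above chow without overlap. The miR-30 family (5 of 6 tested, median 0.04) and the miR-29 family (3 of 3 tested, median 0.03) had 0 calls and no member without overlap. Without control array 1 and with the other arrays rescaled, the median of all tested miRNAs was 0.12. The family medians were then 0.19 for let-7, 0.21 for miR-15, 0.11 for miR-30 and 0.07 for miR-29. The clusters of miR-17 to miR-92 and miR-106b to miR-25 (7 of 9 tested, median 0.05) also had 0 calls and no member without overlap, with a median of 0.08 without control array 1. In the clusters of miR-23, miR-27 and miR-24 all 5 were tested, with a median of 0.08 (0.17 without control array 1), and miR-24-3p (0.14) lay above chow without overlap.

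**Figure D4:**
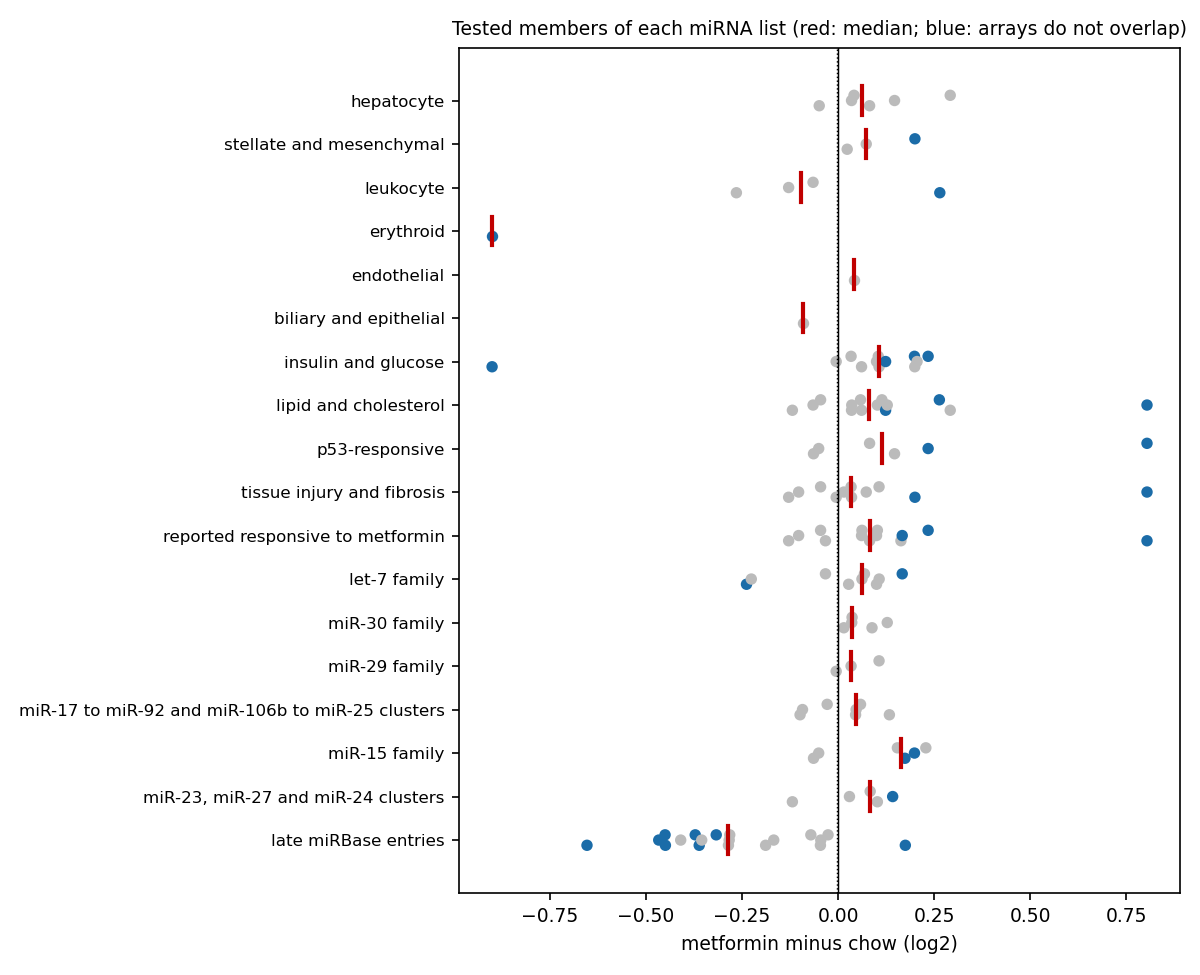
Metformin minus chow (log2, horizontal axis) of every tested member of each miRNA list (vertical axis); red bars are list medians, blue points are miRNAs whose metformin and chow arrays do not overlap, and the dotted line is the median over all tested miRNAs (-0.0037). List medians lie between -0.10 and 0.16 except for miR-451a alone in the erythroid list (-0.90) and the late miRBase entries (-0.29).

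Late miRBase entries, here the miRNAs numbered 5000 or higher, whose functions are mostly uncharacterised, had mostly negative differences that did not pass. Of 782 on the array 19 were tested, 0 passed, 18 were negative and the median was -0.29. Of the 19, 7 lay below chow without overlap, beside 13.3% of all tested miRNAs, and 1, miR-7050-5p at 0.18, above it, beside 12.6%. miR-7050-5p was 1 of the 2 miRNAs (1.40%) that passed in metformin minus saline, at 0.47 (adjusted p = 0.0465), beside miR-202-3p. Examples of late entries were miR-6931-5p at -0.47, miR-8110 at -0.45, miR-6538 at -0.45 and miR-8101 at -0.37. With control array 1 left out and the other arrays rescaled, the median of the list was -0.03, and that of all tested miRNAs was 0.12. For miR-8110 the control arrays stood at 2.07, 1.44 and 1.62 and the metformin arrays at 1.32, 1.28 and 1.18.

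Differences were also laid out by base composition, with a limit on the share of G and C set after the values were seen, so no test is given. A mature sequence was found in RefSeq for 125 of the 143 tested miRNAs. Of these, 30 had a share of G and C of at least 60%, 15 of them late entries. Their median difference was -0.28, 28 of 30 were negative, 13 lay below chow without overlap (13.3% of all tested miRNAs did), 1 lay above it (miR-210-3p) and 0 passed. The other 95 had a median of 0.05, with 14 above and 4 below chow without overlap, beside 12.6% and 13.3% of all tested miRNAs. Both called miRNAs were among the 95. In the saline group the medians of the 2 classes against the same control arrays were -0.32 and 0.09. Control array 1 stood apart, with a median deviation of 0.40 for the G and C rich class, against 0.04 and 0.15 on control arrays 2 and 3. With control array 1 left out and the other arrays rescaled, the median metformin difference was -0.06 in that class and 0.15 in the other. Over all tested miRNAs it was then 0.12. The part of base composition in these differences was not tested.

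**Figure D5:**
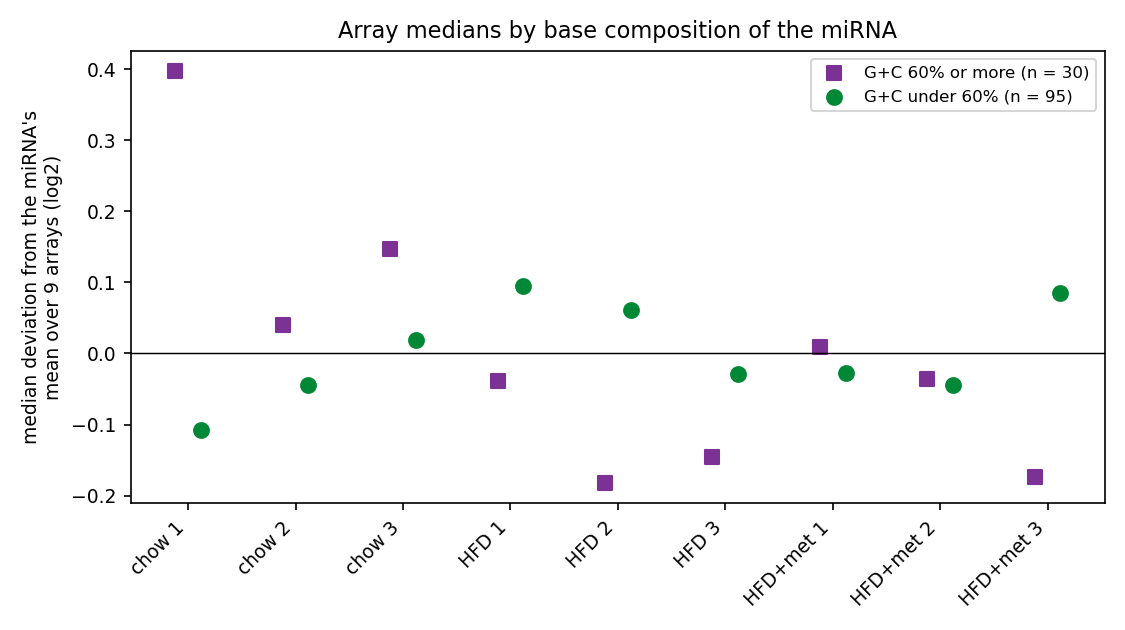
Median deviation of an array from each miRNA's mean over 9 arrays (log2, vertical axis), for miRNAs with a G and C share of at least 60% (squares, n = 30) and below it (circles, n = 95); HFD is the fat diet with saline and HFD+met the fat diet with metformin. Chow array 1 is at 0.40 for the first class and -0.11 for the second.

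Arrays were spread over slides and rows. Metformin arrays 2 and 3 and control arrays 1 and 2 lay in 1 row of a slide, metformin array 1 in the other row, and control array 3 on another slide. The 4 miRNAs miR-1187, miR-466i-5p, miR-3082-5p and miR-574-5p were high on control arrays 1 and 2 and near the metformin arrays on control array 3. They were picked out after their values were seen, and passed only in fits without control array 3. For miR-466i-5p the control arrays stood at 0.65, 0.50 and -0.14 and the metformin arrays at -0.04, 0.04 and -0.27. For miR-574-5p the control arrays stood at -1.03, -1.31 and -1.88 and the metformin arrays at -1.74, -1.68 and -1.91. With all arrays the differences were -0.42 and -0.37 (adjusted p = 0.189 and 0.223 by limma). Without control array 3, so that only arrays of 1 slide were fitted, they were -0.66 and -0.60 (adjusted p = 0.00811 and 0.0131 by limma). Those of miR-1187 and miR-3082-5p were then -0.73 and -0.72 (adjusted p = 0.00811 each). Slide and pool cannot be told apart for that array, since it is the single one on its slide.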

How the data were processed

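Liver miRNA was measured on 9 one-colour (Cy3) Agilent mouse miRNA arrays. Per the file headers, spot intensity was extracted with Agilent Feature Extraction 11.5.1.1 and background-subtracted, with no scaling between arrays. The submitters' processing notes name version 10.7, a difference that was not resolved. Values in the authors' deposited table are log2 and served as an alternative. They held the scanner software's summed miRNA signal shifted by 1 constant for each array, from which at most 6 miRNAs on an array departed. The table's constants lay between -2.35 and -0.71, its column medians between -5.67 and -4.03, and how it was centred stays unknown.

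Edge strips were found in blocks of 4 columns from either side: a block was dropped if 10% or more of its bright-probe spots (probes with an 80th percentile over 100) fell below 50% of that percentile, and the search ended at a pair of blocks that passed. A probe's value is the median background-subtracted intensity of the spots that were left and had no non-uniformity mark, and 425 probes with under 3 spots on an array were dropped. Scaling used the 75th percentile, per array, of the 187 probes detected on all 9 arrays (over a share of 0.5 of spots well above background). The lowest allowed scaled value was the 1st percentile of those detected (-4.62 on the log2 scale), and log2 was taken last. A miRNA is its probe with the highest mean. Fits that left out 1 array took the scaling probes, percentile and floor anew from the rest, so part of a change can come from scaling. Saturated spots numbered 0, as did identical arrays.

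limma 3.58.1 in R 4.3.3 fitted 3 group means to the 9 arrays with 1 shared spread, two-sided, with Benjamini-Hochberg adjustment over 143 miRNAs and a threshold of 0.05. The number of arrays limits the precision: the median SE was 0.12, and an exact permutation test of 3 against 3 cannot go below p = 0.1. Edge detection and limma were tested on simulated data. Normexp used the median spot signal, since the files hold no mean signal, and added an offset of 50.

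Named miRNAs were all that passed, plus a fixed list of 22; members, lists and the strip rule were chosen with earlier results of these data known. Others described after their values were seen are said to be so, and miR-3963 was also named after its values were seen. Of the 22, miR-33-5p could not be tested. Levels of different miRNAs were not set against each other.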

Additional observations from a re-analysis of the deposited data

How the results depend on the processing

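The count of 2 miRNAs that passed by limma was 2 under 8 alternatives of processing that changed the edge rule, spot summary, detection filter on 9 or 6 arrays, floor, probe choice or the arrays fitted. It was 0 with the mean of all spots (16 at an unadjusted p under 0.05), 0 with the union of edge columns left out on every array (17 of 99 tested at an unadjusted p under 0.05; neither miR-34a-5p nor miR-677-3p kept a testable probe), 0 with normexp (34), 0 with no filter (31 of 1879) and 0 in the 4 arrays of the shared row (27). It was 1 with quantile normalization (miR-677-3p), 4 with the array median of tested miRNAs set to 0 and 98 with the percentile over all probes. With only the arrays of 1 slide, which leaves out control array 3, it was 7, and 5 with the row as a block on that slide. It was 1 in the deposited table, also with its medians set to 0 (added after seeing the data), where the call was miR-702-3p. Leaving out 1 array gave 1 to 8 calls: 8 without control array 3, 3 without control array 1, and 1 (miR-677-3p) without any 1 metformin array.

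The median difference of -0.0037 moved to 0.80 with the percentile over all probes, -0.10 with normexp and 0.071 in the centred deposited table. It was 0.0565 with only the arrays of 1 slide, 0.059 with the row block and in the shared row, and between -0.012 and 0.12 without single arrays. The 37 miRNAs without overlap became 21 with the union of columns, 87 with the percentile over all probes and 62 with normexp. They were 61 with only the arrays of 1 slide, whether or not row was a block, 77 in the shared row, and 37 to 62 without single arrays. Fewer arrays in a group separate more easily, so counts from fits that drop control or metformin arrays cannot be set against 37. The split of 18 higher and 19 lower became 50 and 4 without control array 1, and 4 and 58 with normexp. With the percentile over all probes the sign turned, by the shift of the median, for miR-202-3p (0.68), miR-21a-5p (0.76), miR-27a-3p (0.69) and miR-223-3p (0.75), which then passed. It also turned, short of the threshold, for miR-677-3p (0.18), miR-142a-3p (0.55), miR-3102-5p (0.45), miR-574-5p (0.44), miR-3963 (0.42), miR-466i-5p (0.39), miR-3082-5p (0.38), miR-6538 (0.36), miR-3960 (0.35), miR-1187 (0.32) and miR-211-3p (0.24), while miR-451a stayed at -0.09. The other causes were not tested.

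Same-numbered control and metformin arrays deviated from their group means with correlations of 0.362, -0.236 and 0.433, so the numbers were not taken to pair the pools, and control array 2 correlated best with metformin array 3. With the replicate block 3 miRNAs passed, miR-34a-5p, miR-677-3p and miR-211-3p.

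Dim probes limit the rest: 20 of the tested miRNAs were not above background on at least 1 control array.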
